A study of Mus musculus with 70 samples.

Results

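Time-restricted feeding (TRF) was compared with ad libitum feeding (ALF) in the hippocampus of APP23 mice, the transgenic group labelled TG. All libraries of that genotype were used, 37 of the 70 in the series, with 19 animals on ALF and 18 on TRF. APP23 mice carry a human APP transgene under the Thy1 promoter, which is active in neurons, and the labels name the strain as a B6 line. Both groups carry the transgene, and the labelled difference between them is the hours of food. On TRF, food was given for 6 h in the middle of the dark, active phase, from zeitgeber time (ZT) 15 to ZT21, where ZT0 is lights on and ZT12 lights off. TRF began when the mice were 6 to 9 months old, and tissue was taken at 10 to 13 months. ZT0 had 6 animals on each regimen, ZT6 had 4 on each, ZT12 had 6 on ALF and 5 on TRF, and ZT18 had 3 on each. Each animal was a separate mouse, so p-values measure the spread between animals. The sex of single animals is not given in the sources used here. Non-transgenic littermates (NTG), 16 animals on ALF and 16 on TRF, served as a second comparison that shares no animal with the first. They were mostly from ZT0 (7 on ALF and 6 on TRF) and ZT12 (6 on each). ZT6 had 1 littermate on ALF and 2 on TRF, and ZT18 had 2 on each, so littermate values hardly sample these times.

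Laboratory mice eat mostly in the dark phase, and the adrenal glands release corticosterone shortly before that phase begins. Corticosterone acts through the glucocorticoid receptor, which raises a well-known set of genes in the brain, among them Fkbp5, Sgk1 and Tsc22d3. Meal times can set clocks in many tissues, and a daily fast can lower body temperature and moves metabolism from glucose towards fat and ketone bodies. APP23 mice develop amyloid plaques with age, surrounded by activated microglia and astrocytes.

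Depth was high and similar in both groups, with an estimated 29.6 to 43.4 M reads per library on ALF and 29.3 to 47.1 M on TRF. Thy1, whose promoter drives the transgene, had a mean of 140541 ± 19040 (SD) normalized counts with ALF and 132633 ± 14759 with TRF, and its log2 difference of −0.07 ± 0.06 did not pass the test (adjusted p = 0.496, limma). App, the mouse gene, had −0.12 ± 0.05 (adjusted p = 0.168). Dissections were not uniform. Ttr, the defining gene of the choroid plexus, split the animals into a high set (31513 normalized counts or more) and a low set (6174 or fewer), and the low set held 3 of 19 animals on ALF and 8 of 18 on TRF. The APP23 animals at ZT6 and ZT18 all come from one range of animal numbers, and those at ZT12 from other ranges, so time and number range cannot be told apart there. At ZT0, 2 TRF animals and no ALF animal came from the range used at ZT6 and ZT18. The labels do not say what the ranges mean, and with them as a covariate 52 genes were called in the comparison below in place of 77. Longer transcripts also tended to have lower values on TRF, as described with the genes that fell. Libraries are named here by genotype, feeding, ZT and animal. TG_ALF_0_5, TG_ALF_0_16 and TG_TRF_12_104 were among the 5 libraries of the series with the lowest correlation to the others.

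Across 14260 genes, 77 differed between TRF and ALF at an adjusted p of at most 0.05 (0.54% of all genes tested; limma, Benjamini-Hochberg), 28 of them higher on TRF (0.196%) and 49 lower (0.344%). An unadjusted p under 0.05 was reached by 2433 genes (17.1%). Changes were small: the 28 that rose had a median log2 difference of 0.25 (0.14 to 0.83), and the 49 that fell a median of −0.35 (−0.63 to −0.17), beside a median of 0.0021 over all genes. No gene of the 77 separated every TRF animal from every ALF animal across the 4 times. Within single times the groups did separate for some: of the 28, TRF lay wholly above ALF in 3 for ZT0 (0.126% of all genes), 13 for ZT6 (1.61%), 8 for ZT12 (0.358%) and 13 for ZT18 (6%). Of the 49, TRF lay wholly below ALF in 1 for ZT0 (0.0982%), 16 for ZT6 (1.7%), 10 for ZT12 (0.231%) and 27 for ZT18 (6.82%), and these separations come from the same values that chose the genes. The number of genes called depended on single animals, from 18 without TG_TRF_12_104 to 248 without TG_TRF_12_24. With libraries scaled to the same total 16 genes were higher and 86 lower, so that 15.7% were higher, against 36.4% of the 77. In 16 genes the call held in each of the 37 fits that left out 1 APP23 animal. They were Etnppl, Sult1a1, Amn, Rbm3, Fkbp5, Thra, Prxl2a and Ykt6 among those that rose, and Fgfr2, Dock5, Abca8a, Adamtsl1, Serinc5, Tmem88b, Clic4 and Pde8a among those that fell.

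**Figure D1:**
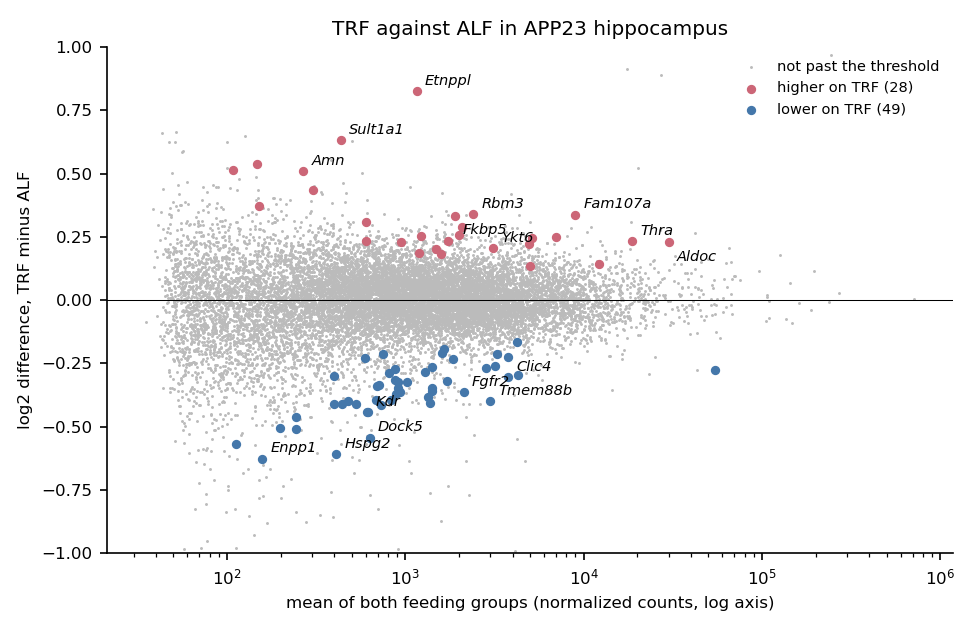
Each point is a gene, with its mean over the ALF and TRF groups of APP23 mice (normalized counts, log axis) and its log2 difference, TRF minus ALF. The 28 genes that rose are in red and the 49 that fell in blue, and 32 genes lie outside the vertical range. The genes that passed lie between −0.63 and 0.83.

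Upstream sequence is shown for 3 of the genes that rose in every such fit: Etnppl, the one with the largest difference, Fkbp5, a standard target of the glucocorticoid receptor, and Amn, whose window holds a match to the receptor's half-sites. The sequences are the 250 bases before each gene's start, on the gene's strand, from RefSeq (GRCm38.p6). Capitals mark matches, on either strand, to the E-box CACGTG bound by clock factors and to ACANNNTGT, the core of a glucocorticoid response element (GRE).
Etnppl, chr3:130617198-130617447, plus strand: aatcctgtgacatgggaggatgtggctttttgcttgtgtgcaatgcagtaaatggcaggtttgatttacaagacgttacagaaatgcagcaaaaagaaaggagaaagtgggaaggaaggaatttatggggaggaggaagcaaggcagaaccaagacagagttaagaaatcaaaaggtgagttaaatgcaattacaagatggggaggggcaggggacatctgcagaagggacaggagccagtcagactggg
Fkbp5, chr17:28486150-28486399, minus strand: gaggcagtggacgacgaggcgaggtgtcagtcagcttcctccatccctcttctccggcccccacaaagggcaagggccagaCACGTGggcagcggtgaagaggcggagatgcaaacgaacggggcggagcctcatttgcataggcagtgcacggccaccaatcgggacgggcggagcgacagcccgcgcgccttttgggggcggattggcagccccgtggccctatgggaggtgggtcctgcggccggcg
Amn, chr12:111270846-111271095, plus strand: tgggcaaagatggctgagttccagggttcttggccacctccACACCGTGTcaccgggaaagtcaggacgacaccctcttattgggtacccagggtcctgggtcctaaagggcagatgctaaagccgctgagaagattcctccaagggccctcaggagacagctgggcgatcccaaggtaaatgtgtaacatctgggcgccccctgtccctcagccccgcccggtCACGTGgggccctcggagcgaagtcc
Fkbp5 has an E-box that begins 169 bases before the start and no GRE core in this window. Amn has a GRE core 209 bases and an E-box 26 bases before the start, and neither pattern is in the Etnppl window. Windows of 300 bases (250 before to 50 after the start) were listed for 23 of the 28 genes that rose and 34 of the 49 that fell. The E-box was in 13.0% of the 23 and 11.8% of the 34, beside 9.99% of 11045 listed genes of the table. The GRE core was in 4.35% and 2.94%, beside 4.13%. These are descriptions of letters, and both motifs were about as frequent as in other genes.

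Etnppl, which encodes the astrocyte enzyme that breaks down phosphoethanolamine, rose most (chromosome 3, 130617448 to 130635750, GRCm38). Its lowest, median and highest values were 405, 838 and 1277 normalized counts for ALF and 700, 1426 and 3028 for TRF. At ZT12 the 5 TRF animals had 1526, 2138, 2219, 2386 and 3028, and the 6 ALF animals 838, 855, 992, 1074, 1218 and 1277. At ZT6 the TRF values were 889, 923, 1400 and 1456 against 424, 518, 610 and 678 on ALF, and at ZT18 they were 1359, 1615 and 1728 against 955, 963 and 1034. The groups thus did not overlap at these 3 times, while at ZT0 they did (405 to 1142 on ALF, 700 to 1430 on TRF). The log2 difference was 0.83 ± 0.14 (SE), a 1.77-fold higher level, with adjusted p = 0.0012 (limma). The 4 times had differences of 0.53, 1.05, 1.10 and 0.67 in order from ZT0 to ZT18.

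Sult1a1, a sulfotransferase of phenols that glucocorticoids induce, was the next highest (chromosome 7, 126672865 to 126690443). It ran from 150 to 499 normalized counts on ALF and from 292 to 972 on TRF. TRF exceeded ALF without overlap at ZT6 (353 to 405 against 150 to 277) and at ZT12 (653 to 972 against 323.5 to 484), and the groups overlapped at ZT0 and ZT18. Its log2 difference was 0.63 ± 0.13 (adjusted p = 0.010). Amn, whose protein anchors the receptor for vitamin B12 uptake, ran from 105 to 312.5 on ALF (median 225) and from 148 to 471 on TRF (median 317). Its groups did not overlap at ZT6 and ZT18, and the difference was 0.51 ± 0.11 (adjusted p = 0.013).

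**Figure D2:**
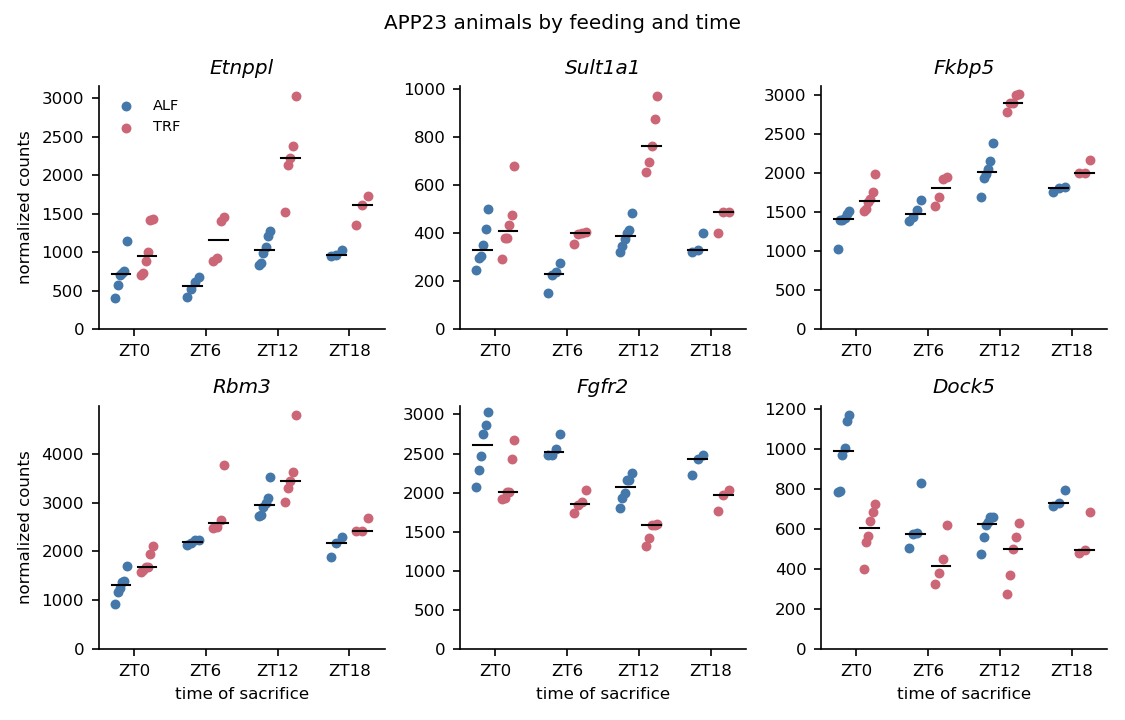
Normalized counts of 6 genes in each APP23 animal by time of sacrifice, ALF in blue and TRF in red, with a black line at each group's median and each axis starting at 0. Etnppl, Sult1a1, Fkbp5 and Rbm3 rose on TRF, and at ZT12 the 5 TRF animals lie above all 6 ALF animals in the first 3 of them. Fgfr2 and Dock5 fell, and all TRF animals lie below all ALF animals at ZT6, ZT12 and ZT18 in Fgfr2 and at ZT0 and ZT18 in Dock5.

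Genes induced by glucocorticoids all had positive differences in the fit over the 4 times together. The list was chosen with earlier results of these data known, so its counts are a description. Of 23 measured genes of this list, 23 had a positive value (50.7% of all genes did) and 4 rose, none falling. Their median was 0.29, beside 0.0021 for all genes. Besides Sult1a1, those that rose were Fam107a, a stress-induced actin-binding protein (0.34 ± 0.08), Fkbp5, the co-chaperone that dampens the receptor (0.33 ± 0.07), and the astrocyte connexin Gjb6 (0.29 ± 0.07), with adjusted p of 0.028, 0.013 and 0.037 (limma). At an unadjusted p under 0.05, 15 of the 23 were higher, beside 8.35% of all genes. Members that did not pass included the growth-arrest gene Cdkn1a (0.38 ± 0.17, adjusted p = 0.253) and Angptl4, a secreted inhibitor of lipoprotein lipase (0.62 ± 0.21, adjusted p = 0.116). The median stayed between 0.22 and 0.34 under 22 alternatives, including 0.31 with a choroid plexus covariate and 0.22 with a transcript-length covariate. In littermates the list's median was 0.15, and 19 of the 23 were positive, beside 52.3% of all genes. There 4 were higher at an unadjusted p under 0.05, beside 3.3% of all genes.

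The median of the list was highest at ZT12, the sampled time with the longest gap since the last feeding window. In order from ZT0 to ZT18 its median differences were 0.16, 0.36, 0.55 and 0.13, the last at a time within the window. Since the animals at ZT6 and ZT18 come from another range of numbers than those at ZT12, these times differ in more than the hour. As a mean level per animal (log2, relative to the mean of the 37 animals), ALF lay between 0.04 and 0.17 at ZT12 and TRF between 0.56 and 0.95, without overlap. At ZT6 the groups were also apart (−0.44 to −0.13 on ALF and −0.08 to 0.12 on TRF). At ZT0 (−0.62 to 0.17 and −0.36 to 0.39) and ZT18 (−0.30 to −0.09 and −0.15 to 0.03) the groups overlapped. Fkbp5 (chromosome 17, 28398753 to 28486149) had 1695, 1940, 1980, 2053, 2145 and 2384 normalized counts in the 6 ALF animals at ZT12 and 2780, 2896, 2900, 2992 and 3011 in the 5 TRF animals. All TRF values were above all ALF values there, whereas at ZT0 the ranges met (1021 to 1513 and 1510 to 1984).

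Whether the difference depends on the time was tested in a model with a mean for each group and time. No gene passed (limma F test), and 239 of 14260 had an unadjusted p under 0.05 (1.68%). Of the glucocorticoid list 4 of 23 did: Pdk4, Cdkn1a, Angptl4 and Txnip, named here after their values were seen. Pdk4, the kinase that holds back glucose oxidation, had 350 to 456 normalized counts on ALF and 494 to 813 on TRF at ZT12. At ZT18 the medians were 489 on ALF and 356 on TRF, and its differences at the 4 times were −0.05, −0.32, 0.57 and −0.38 (unadjusted p = 0.00013, not past the adjusted threshold). Cdkn1a ranged from 235 to 352 on ALF and from 449 to 1328 on TRF at ZT12, and Angptl4 from 51.1 to 119 and from 133 to 350. Both genes separated the groups at ZT12 and overlapped at ZT0. Txnip, a glucose-responsive inhibitor of thioredoxin, lay at 634 to 859 for ALF and 951 to 1450 for TRF at ZT12.

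**Figure D3:**
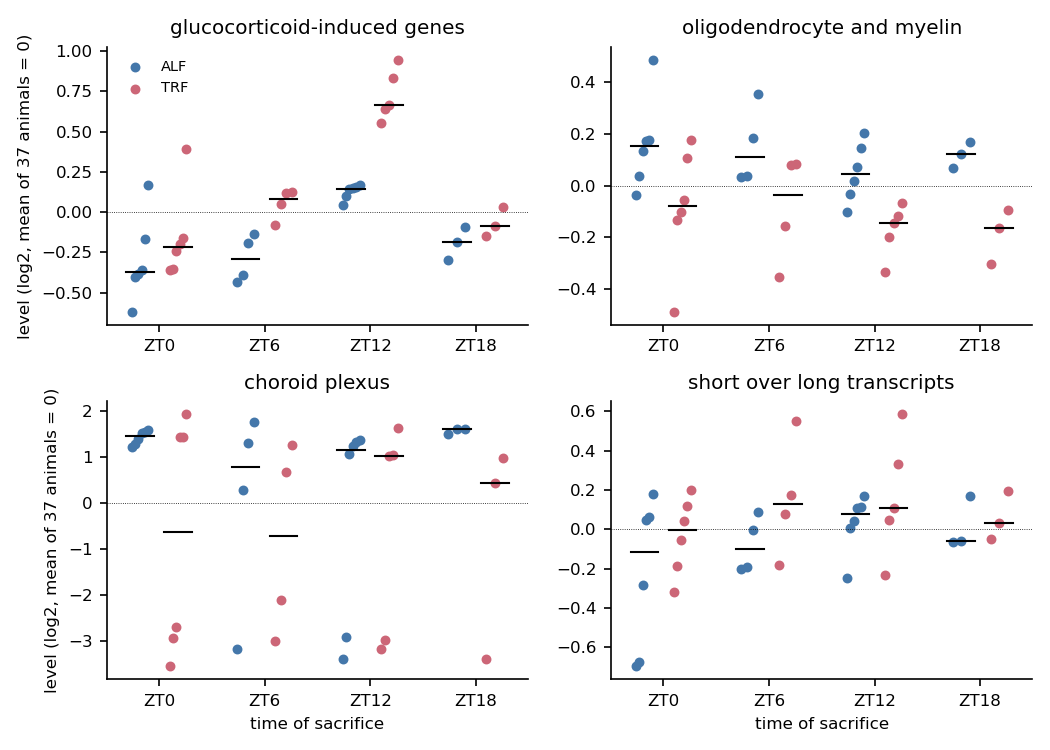
Level of 3 gene lists and of the transcript-length measure in each APP23 animal (log2, mean of the 37 animals set to 0) by time, ALF in blue, TRF in red, black lines at medians. The glucocorticoid list at ZT12 is at 0.04 to 0.17 on ALF and 0.56 to 0.95 on TRF, while the choroid plexus level splits both groups into high and low animals.

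The cold-inducible RNA-binding protein Rbm3, which rises when body temperature falls, was higher on TRF (chromosome X, 8138975 to 8145880). It ran from 931 to 3520 normalized counts on ALF (median 2181) and from 1577 to 4787 on TRF (median 2496). The ranges were separate at ZT6 (2129 to 2234 and 2483 to 3760) and ZT18 (1884 to 2300 and 2424 to 2683) and overlapped at ZT0 and ZT12. The difference was 0.34 ± 0.07 (adjusted p = 0.016), and Rbm3 was also 0.31 ± 0.08 higher on TRF in littermates (unadjusted p = 0.0002). Cirbp, the other classical cold-inducible gene, had 0.28 ± 0.08 and did not pass (adjusted p = 0.071). Rbm3 and Cirbp were listed together with Rtn3 and Sf3b1, and the median over these 4 genes was 0.14.

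Astrocyte genes moved unevenly. Of 18 measured, 4 rose (Etnppl, Fam107a, Gjb6 and Aldoc, the brain aldolase of glycolysis, 0.23 ± 0.05). None fell, 10 were positive, and the median was 0.005. Of all genes, 0.196% rose and 50.7% were positive. Fam107a and Gjb6 also belong to the glucocorticoid list. Gfap, the filament protein of reactive astrocytes, had −0.23 ± 0.06 with adjusted p = 0.056. Other genes that rose were Tnnt2 (0.54 ± 0.13), Garin5a (0.52 ± 0.12), Kirrel2, an adhesion protein (0.44 ± 0.11), Pxmp2, a channel of the peroxisome membrane (0.37 ± 0.10), and Cyp4f15, a cytochrome P450 (0.31 ± 0.07). Further members were Mgst3 (0.26 ± 0.07), a glutathione transferase, Clec2l (0.25 ± 0.06), Itpka (0.25 ± 0.06), a kinase of dendritic spines, and Sparc (0.25 ± 0.06), a secreted matrix protein. Thra, the main thyroid hormone receptor of the brain, rose by 0.23 ± 0.05, and the redox protein Prxl2a by 0.22 ± 0.04. The SNARE protein Ykt6, of vesicle fusion, had overlapping ranges and a small difference that passed: 2482 to 3155 on ALF (median 2899), 2972 to 3787 on TRF (median 3257), 0.20 ± 0.04, adjusted p = 0.0014. It was called in 20 of 22 other alternatives, Etnppl and Prxl2a in 19 each.

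Myelin genes had negative differences throughout. Of 20 measured genes of oligodendrocytes and myelin, none was positive (50.7% of all genes were), and the median was −0.23. In 12 of the 20 the unadjusted p was under 0.05 and the value negative, beside 8.71% of all genes. Among those that did not pass were the transferrin gene Trf (−0.36 ± 0.09, adjusted p = 0.053) and Ugt8a, which makes the lipid galactosylceramide (−0.36 ± 0.09, adjusted p = 0.054). The list's level per animal ranged from −0.10 to 0.49 on ALF (median 0.12) and from −0.49 to 0.18 on TRF (median −0.12). In bulk tissue, fewer cells of a type and less RNA per cell cannot be told apart. In littermates the list's median was −0.06. With the choroid plexus level as a covariate it was −0.19 in APP23 mice, and Enpp2 is on both lists. Genes of neighbouring brain regions were negative in 13 of 17 (49.3% of all genes), with a median of −0.15. Ependyma genes were negative in 9 of 11, with a median of −0.34. The part of dissection in the myelin values was not tested.

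Fgfr2, the receptor for fibroblast growth factors on glia, had the smallest adjusted p among genes that fell (0.0024; chromosome 7, 130162451 to 130266808). It ran from 1800 to 3025 normalized counts on ALF (median 2425) and from 1320 to 2676 on TRF (median 1901). At ZT6 the ALF animals had 2475, 2487, 2554 and 2752 and the TRF animals 1740, 1836, 1883 and 2029, and at ZT18 they had 2224, 2425 and 2476 against 1763, 1965 and 2028. Only at ZT0 did the ranges overlap, since at ZT12 they were 1800 to 2247 and 1320 to 1596. The difference was −0.36 ± 0.07. Dock5, an activator of Rac (chromosome 14, 67751928 to 67933572), ran from 472 to 1169 on ALF (median 716) and from 273 to 726 on TRF (median 518), without overlap at ZT0 and ZT18. It had −0.54 ± 0.11 (adjusted p = 0.0059).

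Further genes fell that belong to no list used here. Tmem88b (−0.40 ± 0.09), the receptor Gpr37 (−0.26 ± 0.06), the integrin Itgb4 (−0.40 ± 0.10), the protease Adamts4 (−0.40 ± 0.10), the lipid transporter Abca8a (−0.32 ± 0.06) and Serinc5 (−0.22 ± 0.05), which places serine in membrane lipids, all fell. So did Myo1d (−0.41 ± 0.10), Prr5l (−0.41 ± 0.09), the kinesin Kif13b (−0.41 ± 0.10), the chloride channel Clic4 (−0.30 ± 0.07), the phosphodiesterase Pde8a (−0.34 ± 0.07) and the cytokine Il33 (−0.27 ± 0.06). With the myelin level of each animal as a covariate, 8 genes were called in place of 77, of which 3 were among the 77, and the values of Tmem88b and Clic4 were then −0.20 and −0.15. The myelin level itself had medians of 0.12 on ALF and −0.12 on TRF, so that covariate can take up a part of a feeding difference. Fgfr2 had −0.23 and Dock5 −0.29 in the same fit, both short of the threshold.

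Genes of blood vessels and their basement membrane mostly had negative differences, few of which passed the test. Over all genes, 49.3% were negative, 0.344% fell, 0.196% rose and 8.71% were lower at an unadjusted p under 0.05. Of 23 measured basement membrane and collagen genes, 22 were negative, 3 fell and 1 rose, with a median of −0.22. Those that fell were Hspg2, which encodes perlecan (−0.61 ± 0.14, adjusted p = 0.032), the collagen receptor Ddr2 (−0.44 ± 0.11) and the laminin chain Lamb1 (−0.21 ± 0.05), and Sparc was the one that rose. Hspg2 ran from 248 to 1090 on ALF (median 462) and from 99.8 to 507 on TRF (median 345), with overlap. Of 22 endothelial genes, 19 were negative and 2 fell, with a median of −0.17: Cd93 (−0.46 ± 0.11) and the receptor for vascular growth factor Kdr (−0.44 ± 0.11, adjusted p = 0.039). Kdr ran from 375 to 1126 on ALF (median 680) and from 266 to 1142 on TRF (median 471), and at ZT6 alone the groups were apart. Tek, the angiopoietin receptor, had −0.30 ± 0.09 and did not pass (adjusted p = 0.078). Mural cell genes had a median of −0.17 with no member called, and 3 of 12 at an unadjusted p under 0.05. Blood cell genes were negative in 7 of 7, with a median of −0.50, none called and 3 at an unadjusted p under 0.05, and the genes of meninges and fibroblasts had a median of −0.15 with none called. The part of blood and meninges in the vascular values was not tested. In littermates the medians were −0.02 for basement membrane, −0.0007 for endothelium, −0.05 for mural cells, 0.07 for blood cells and −0.03 for meninges. The remaining large falls were in Enpp1 (−0.63 ± 0.15) and the phosphatase Alpl (−0.50 ± 0.12), which together control pyrophosphate and mineral, Fbxw15 (−0.57 ± 0.14), the protease inhibitor Serpinb1a (−0.51 ± 0.12), Adamtsl1 (−0.41 ± 0.08) and the zinc finger gene Zfp521 (−0.41 ± 0.11).

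**Figure D4:**
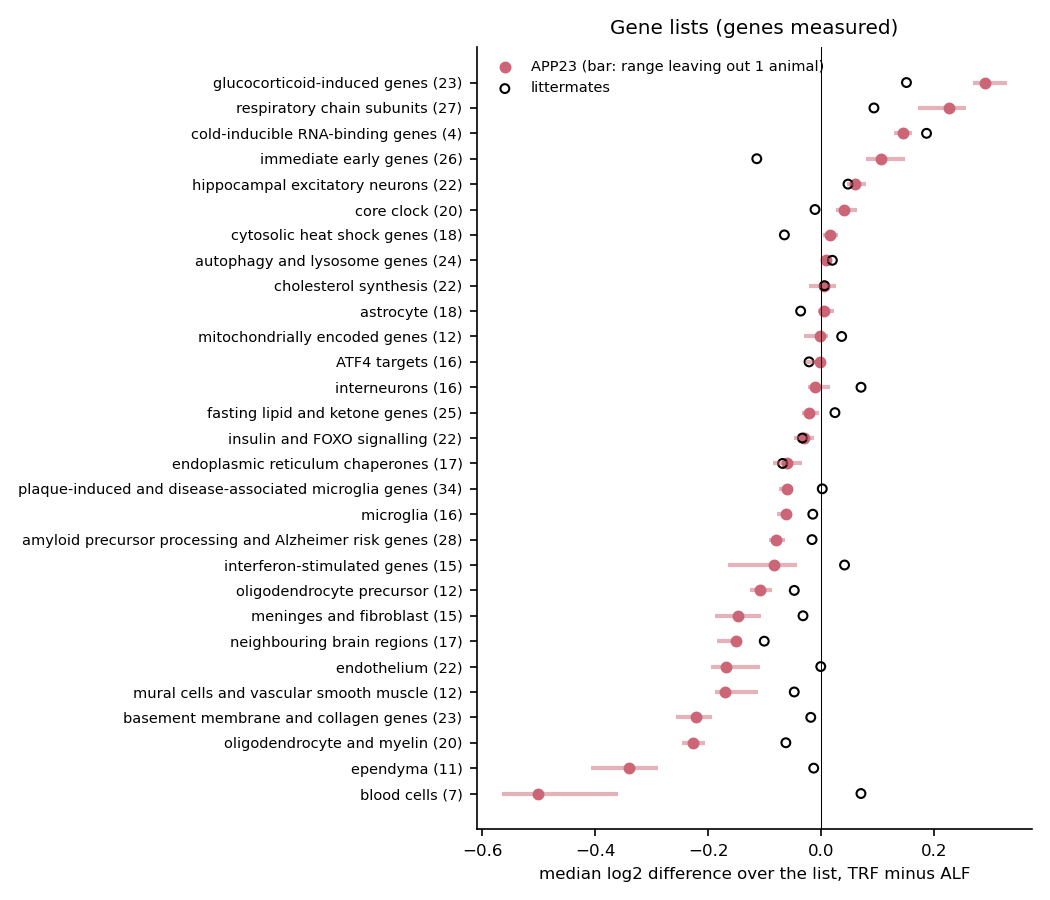
Median log2 difference, TRF minus ALF, over each gene list in APP23 mice (red, with bars for the range of that median when 1 APP23 animal is left out) and in littermates (open circles), with the number of measured genes in brackets. The choroid plexus list, at −1.41 and 0.42, is not drawn. The glucocorticoid list has the highest median in APP23 (0.29), and the myelin (−0.23) and basement membrane (−0.22) lists are among the lowest.

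The genes that fell were long and those that rose short. The median transcript length was 5533 nt for 48 of the 49 that fell, 2300 nt for 27 of the 28 that rose and 3240 nt for all genes (GENCODE M21, 97.7% of genes with a length). Over all 13925 genes with a length, the log2 difference and length had a Spearman rho of −0.50 in APP23 mice and −0.29 in littermates, given as a description, since the genes share the same libraries. In 5 groups of about equal size by length, the median difference went from 0.09 in the shortest to −0.07 in the longest, and the longest group held 27 of the genes that fell and none that rose. The APP23 rho was −0.36 without TG_ALF_0_5 and TG_ALF_0_16, and −0.24 without the 5 libraries of lowest correlation. Among APP23 animals, a measure of short over long transcripts was lowest in TG_ALF_0_5 and TG_ALF_0_16 (−0.70 and −0.68). It was highest in TG_TRF_12_104 and TG_TRF_6_307 (0.59 and 0.55). Littermates on ALF reached lower values, −1.09 and −1.03, in libraries that were also among the 5 of lowest correlation. The littermate rho was not computed without these libraries. With the measure of short over long transcripts as a covariate, chosen after seeing the data, 46 genes were called in APP23 mice. Of these, 20 were higher and 26 lower, and 29 were among the 77. Every gene of the 77 kept its direction in that fit, and the medians were 0.20 for those that rose and −0.29 for those that fell. The same animals chose these genes, so the kept directions are partly built in.

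Subunits of the respiratory chain, the short nuclear genes of oxidative phosphorylation, illustrate the trend. Of 27 measured, 26 were positive (50.7% of all genes) with a median of 0.23, and none was called. A positive value with an unadjusted p under 0.05 was found in 11, beside 8.35% of all genes. With the length measure as a covariate the median of these subunits was 0.01. That measure sets transcripts of at most 1851 nt against those of at least 5256 nt. The subunits had a median length of 738 nt, so this drop is partly built in. The basement membrane, myelin and glucocorticoid lists had medians of −0.14, −0.24 and 0.22 in the same fit. For the first of these, with a median length of 6046 nt, a shift is also partly built in. The part that length plays in the single genes was not tested.

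The choroid plexus list, a marker of tissue outside the hippocampus, had 19 of 19 values negative (49.3% of all genes) with a median of −1.41. None was called, and 7 were lower at an unadjusted p under 0.05, beside 8.71% of all genes. Its level per animal, the mean log2 value of the list relative to the mean of the 37 animals, ranged from −3.41 to 1.75 on ALF and from −3.56 to 1.94 on TRF. With this level as a covariate 20 genes were called, 7 higher and 13 lower, all among the 77, and the 28 and 49 genes kept their directions with medians of 0.23 and −0.32. Among animals with Ttr above 10000 normalized counts alone, no gene passed (limma, 737 at an unadjusted p under 0.05). There too all 77 kept their direction, with medians of 0.21 and −0.33. Both fits use animals whose values chose the 77 genes, so the kept directions are partly built in.

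Lists of plaque, amyloid and clock genes had medians of −0.06, −0.08 and 0.04, beside quartiles of −0.07 and 0.07 over all genes. Of 34 genes induced by plaques, 27 were negative (49.3% of all genes) and the median was −0.06. An unadjusted p under 0.05 and a negative value were found in 9, beside 8.71% of all genes. The one that fell, where 0.344% of all genes did, was Olfml3, a secreted protein of microglia (−0.29 ± 0.07, adjusted p = 0.039). Cd68, of phagocytic microglia, had −0.21 ± 0.07 (adjusted p = 0.135). Of 28 genes of APP processing and Alzheimer risk, 22 were negative (49.3% of all genes) with a median of −0.08 and none was called. At an unadjusted p under 0.05, 7 were lower, beside 8.71% of all genes. Among 20 core clock genes 16 were positive (50.7% of all genes) with a median of 0.04 and none was called. At an unadjusted p under 0.05, 4 were higher, beside 8.35% of all genes. The clock repressor Ciart had 0.31 ± 0.10 (adjusted p = 0.097). Of 25 genes of fasting, lipid oxidation and ketone use, 12 were positive and 13 negative, with a median of −0.02. Pxmp2 alone passed, as a rise, where 0.196% of all genes rose. At an unadjusted p under 0.05, 3 were higher and 2 lower, beside 8.35% and 8.71% of all genes. Cpt1a, which admits fatty acids to mitochondria, had −0.28 ± 0.09 (adjusted p = 0.083). In 22 genes of cholesterol synthesis the median was 0.006 and none was called. At an unadjusted p under 0.05, 3 were higher, beside 8.35% of all genes. Of 22 genes of insulin and FOXO signalling, 16 were negative (49.3% of all genes), with a median of −0.03. The 1 that fell, where 0.344% of all genes did, was Igf2r, the receptor that clears insulin-like growth factor 2 (−0.32 ± 0.08). At an unadjusted p under 0.05, 4 were lower and 2 higher, beside 8.71% and 8.35% of all genes.

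In littermates, with other animals on both sides and few of them at ZT6 and ZT18, the 77 genes mostly had the same direction. All 28 that rose in APP23 mice were positive (52.3% of all genes were), with a median of 0.09, and 11 had an unadjusted p under 0.05 and a positive value (3.3% of all genes). Of the 49 that fell, 46 were negative (47.7% of all genes), with a median of −0.11, and 17 had an unadjusted p under 0.05 and a negative value (4.17%). None of the 77 passed the adjusted threshold in littermates, where 4 genes of 14260 did (0.0281%), all of them lower, and 1065 had an unadjusted p under 0.05 (7.47%). Single values in littermates were 0.53 ± 0.15 for Etnppl, 0.52 ± 0.14 for Sult1a1, 0.45 ± 0.11 for Amn and 0.21 ± 0.07 for Fkbp5. On the lower side Serpinb1a had −0.41 ± 0.13 and Pik3c2b, a lipid kinase, −0.35 ± 0.09. In contrast, Hspg2 had 0.07 ± 0.15, Alpl −0.02 ± 0.13 and Adamtsl1 −0.02 ± 0.09. The trend with length, which both genotypes showed, also runs in the direction of these genes.

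**Figure D5:**
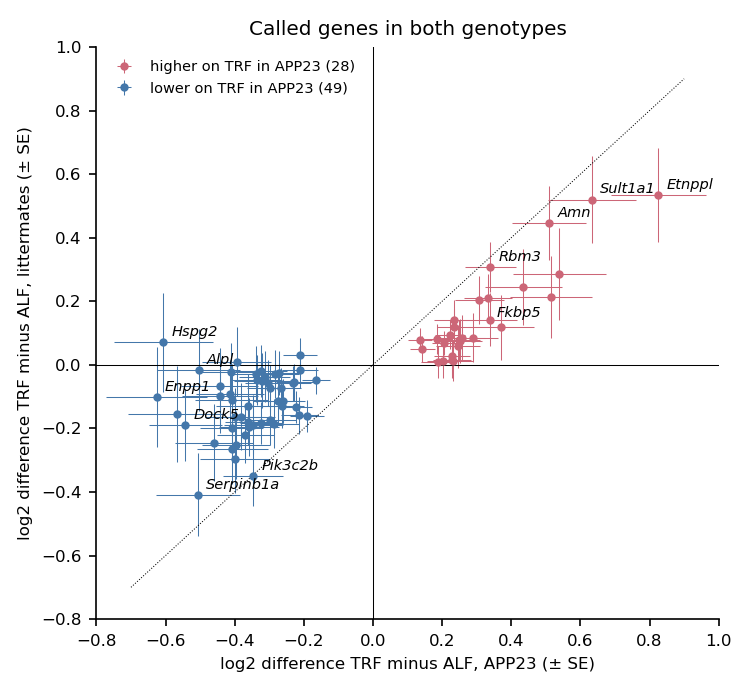
Log2 difference, TRF minus ALF, of the 77 genes in APP23 mice (horizontal, ± SE) and in littermates (vertical, ± SE), in red those that rose and in blue those that fell in APP23, with a dotted line of equal values. All 28 red points and 46 of 49 blue points have the same sign in both genotypes.

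Of the 28 genes, 28 had a smaller difference in littermates than in APP23 mice, and of the 49, 48 did. The genes were chosen for their size in APP23 mice, so this count is a description. The difference itself was tested as an interaction of feeding and genotype, and no gene of 14260 passed (limma, 745 at an unadjusted p under 0.05, 5.22%). Immediate early genes, the rapid markers of neuronal activity, had 23 of 26 values positive in APP23 mice (50.7% of all genes), with a median of 0.11. In littermates 24 of 26 were negative (47.7% of all genes), with a median of −0.11. None of them was called in either genotype. At an unadjusted p under 0.05, 2 were higher in APP23 mice, beside 8.35% of all genes. In littermates 6 were lower at that level, beside 4.17% of all genes. The difference over the list was not tested. The comparison of APP23 with littermates on ALF shares the 19 ALF animals used here, so its values only stand beside these: −0.18 ± 0.14 for Etnppl, 0.12 ± 0.13 for Sult1a1, −0.004 ± 0.07 for Fkbp5 and −0.01 ± 0.07 for Fgfr2. Of the 28 genes that rose on TRF, 27 had the opposite sign in that comparison (median −0.11), and of the 49 that fell, 31 did (median 0.03). The same ALF animals stand on opposite sides of both comparisons, so opposite signs are partly built in.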

How the data were processed

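Poly-A RNA of hippocampus from one hemibrain per mouse was sequenced in paired reads of 150 bases and trimmed with Trimmomatic, per the labels' protocols. HISAT2, featureCounts and DESeq2 are named, with build GRCm38, by the submitters' processing notes; versions and annotation are not given in the sources used here. For each gene the authors deposited an expression signal that is normalized, read counts divided by 1 factor per library. This reading comes from the values, 100% of which were whole multiples of 1 step per library within 0.01 of a step, and taking the step as 1 read gave the depth, 27.9 to 47.1 M (median 37.2 M). The table lists 14260 gene symbols with means of at least 40.9, 97.9% of them in the RefSeq table.

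Values were analysed as log2(value + 1) with limma 3.58.1 in R 4.3.3 (moderated test, variance trend, robust, 2-sided), with 4 group means and time terms, over 69 animals. Libraries 232 and 232R of NTG on TRF were averaged as 1 animal, which the labels do not state. A filter on a mean of 10 removed no gene. Fold changes are on the log2(value + 1) scale, with SE; n is 19 (ALF) and 18 (TRF). Feeding by time used 16 means. On simulated data for TRF against ALF in TG (14260 genes), the fit recovered 59% of 100 genes changed by 0.3 and 98% of 100 changed by 0.6, and called 6 unchanged genes. The simulated noise was drawn separately for each gene and animal. It lacks the shifts shared by whole libraries, such as those with transcript length and choroid plexus, so these figures may not hold for the real data. Levels of a list are mean log2 values over its genes.

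Genes, lists and alternatives were chosen with earlier results of these data known. Named are the 15 largest changes in each direction, each called member of 30 lists, the 3 members of each list with the smallest p (given where the list is described), the 5 genes with the smallest p in each interaction (only Pdk4 is described), Thy1 and App; 1 called gene is not reported here. Genes called in every fit leaving out 1 animal, and other genes described, were added after their values were seen. Alternatives covered pseudocounts, filters, scaling, models, covariates and omitted animals.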

Additional observations from a re-analysis of the deposited data

Results flagged for a closer look

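In groups of 4 to 6 animals of 1 feeding and time, the values described were examined for an animal far from the others, and 6 sets had one, where chance gives about 1 in 20 (6.3). Sult1a1 was 353 normalized counts in TG_TRF_6_331, below the other 3 (396 to 405). Fkbp5 was 1021 in TG_ALF_0_5, below the other 5 (1393 to 1513). TG_TRF_6_307 had Rbm3 at 3760 (others 2483 to 2640) and Hspg2 at 138 (others 328.9 to 356), and it also had the second highest measure of short over long transcripts. TG_TRF_0_323 had Txnip at 1403 (others 663 to 801) and a level of the glucocorticoid list of 0.39 (others −0.36 to −0.16).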

How the results depend on the processing

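The count of 77 genes in APP23 mice was 173 with APP23 animals only, 2 with no term for time, 0 with ZT0 and ZT12 only (1280 at an unadjusted p under 0.05), 123 with quantile normalization, 20 with choroid plexus and 8 with myelin covariates, and 7 without the 5 libraries of lowest correlation. Among alternatives chosen after seeing the data, it was 46 with the length measure, 9 with that and choroid plexus, 0 among animals with Ttr above 10000 and 11 without TG_ALF_0_5 and TG_ALF_0_16. The cause of these shifts was not tested, except that some use fewer animals. Leaving out 1 animal gave 18 to 248. The omissions that moved it over 1.5 times were TG_TRF_12_104 (18), TG_TRF_6_307 (26), TG_TRF_18_330 (28), TG_TRF_0_7 (47), TG_ALF_0_5 (21), TG_ALF_0_16 (28), TG_ALF_6_304 (35), TG_ALF_0_124 (39), TG_ALF_6_332 (40), TG_ALF_12_115 (42), TG_ALF_18_314 (43), TG_ALF_6_310 (45) and TG_ALF_6_319 (45), and upward TG_ALF_0_234 (119), TG_TRF_0_102 (172) and TG_TRF_12_24 (248). The 4 genes called in littermates were 0 with no term for time, with 16 means, with equal totals and without the 5 libraries. They were 2 with number series, quantile normalization or the myelin level, and 1 without trend and robust variances. With the length measure alone and with choroid plexus they were 7 and 22. Leaving out 1 APP23 animal gave 3 to 5 in littermates. Littermates were not left out singly, so this range does not show how far their count depends on single littermates. Both interactions stayed at 0 in every alternative that gave one. No gene of the 77 changed sign, which is partly built in, since animals of the same set chose these genes. Uncalled Sf3b1 (−0.01) changed sign, to 0.023 with ZT0 and ZT12 only, 0.0044 with choroid plexus, 0.012 without the 5 libraries, 0.020 and 0.037 with the length measure alone and with choroid plexus, 0.0041 with high Ttr and −0.033 to 0.013 without 1 animal, as did Ak7 (0.054 with the myelin level) and COX2 (−0.0050 with the length measure). No paired analysis was possible because the groups share no animal numbers. Counting error, taken as Poisson in the estimated reads, was below the variance between APP23 animals in 100% of genes and a median of 6.53% of it.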
